A study of Mus musculus with 27 samples.

Results

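Islets taken 6 days after a long course of Myc activation had ended were compared here with islets of mice that had received no drug. The comparison uses 6 of the 27 arrays of the series, chosen by their titles, with 3 arrays in each group. Untreated replicate 3 carries no treatment label and was placed by its title alone. All mice carried 2 transgenes driven by an insulin promoter: MycER, a Myc protein joined to the hormone-binding part of the estrogen receptor, which works only when 4-hydroxytamoxifen binds it, and BclXL, which protects cells from death. The 6-days-off mice had tamoxifen injected once a day for 21 days and were killed 6 days after the final dose, and untreated mice are the study's time 0. Both groups thus carry MycER and BclXL. The 6-days-off group differs from the untreated group in past drug, repeated injection and elapsed time as well as in past Myc activity. These cannot be told apart. The labels name no vehicle-injected group, no mice without MycER, no strain and no age. The other 7 groups are islets 2, 4, 8 and 24 h after an injection, after 21 days of drug, and 2 and 4 days off. Islets were cut from pancreas by laser capture, and their RNA was amplified in 2 rounds before hybridization. Differences are between the 6 arrays, but standard errors and p-values use the spread within all 9 groups of the 27 arrays, unless a fit of fewer arrays is named. The replicates are not said to come from separate mice, so the p-values reflect no more than the spread among arrays, which may be technical. Levels are log2 values, where a difference of 1 is a doubling.

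Myc is a transcription factor that, with its partner Max, drives genes of ribosome making, nucleotide and protein synthesis and cell division, and it can also cause apoptosis. BclXL blocks that death at the mitochondrion, so beta cells with both proteins can multiply. Beta cells make insulin: glucose enters through the transporter encoded by Slc2a2, its metabolism closes an ATP-sensitive potassium channel, calcium enters and granules are released. The comparison asks which genes differ, 6 days after the final dose, from islets never exposed to the drug, whether or not they differed during the drug course.

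The insulin gene Ins2 read 13.64, 13.73 and 13.84 in 6-days-off islets against 13.83, 13.74 and 13.88 in untreated islets, a difference of -0.08 ± 0.11 (SE) with adjusted p = 0.698. A dimmer Ins2 probe set was called lower by 0.41 (adjusted p = 0.0137). Iapp, which encodes the amyloid peptide released with insulin, averaged 12.65 ± 0.23 in 6-days-off islets and 12.74 ± 0.16 in untreated islets (SD, n = 3 each; adjusted p = 0.786). The tissue label thus holds on the beta cell genes measured. Of the transgenes, MycER could be seen only through probes for the endogenous genes: the Esr1 probe set read 11.08, 11.87 and 11.94 in 6-days-off islets against 12, 12.23 and 11.94 in untreated islets (adjusted p = 0.360), and Myc read 5.10, 4.04 and 3.90 against 4.07, 3.52 and 3.70 (adjusted p = 0.488). Whether these probe sets bind the transgene's RNA was not tested, and RNA levels do not report the drug-controlled activity of the protein. Bcl2l1, the gene of BclXL, differed by 0.29 ± 0.11 (adjusted p = 0.0840).

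Some arrays stood apart. Replicate 1 of the 6-days-off group had a mean leukocyte marker level of 8.45, with 7.51 and 7.21 in replicates 2 and 3, against 7.20, 7.06 and 7.49 in untreated islets. The same array was high in red blood cell genes, at 9.78 against 7.63 and 7.58 in its own group and 7.66 to 7.79 in untreated islets, and in mitosis genes, at 7.91 against 6.88 and 6.77 in its own group and 6.67 to 6.77 in untreated islets. Acinar enzyme genes averaged 9.40, 7.57 and 8.13 in 6-days-off islets against 10.42, 7.83 and 8.36 in untreated islets, so that untreated replicate 1 held the most. None of the 19 measured acinar genes, 52 leukocyte genes except Vav1, or 6 red blood cell genes was called. Vav1 was called at -0.54, while its other probe sets were at 0.11 and 0.36 and not called. No marker is at 0, since a log2 array level has a floor well above it. In bulk tissue, fewer cells of a type and less RNA per cell cannot be told apart. The 3′ minus 5′ difference of the Gapdh control, a sign of RNA integrity, was 3.58, 3.73 and 4.45 in 6-days-off islets against 4.94, 3.65 and 5.67 in untreated islets, and that of actin was 3.10, 2.67 and 2.77 against 2.10, 2.15 and 2.37. The actin values do not overlap between the groups, and their part in the results was not tested. Arrays correlated across probe sets with r of 0.957 to 0.985 within the 6-days-off group, 0.978 to 0.984 within the untreated group and 0.950 to 0.977 between them.

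**Figure D1:**
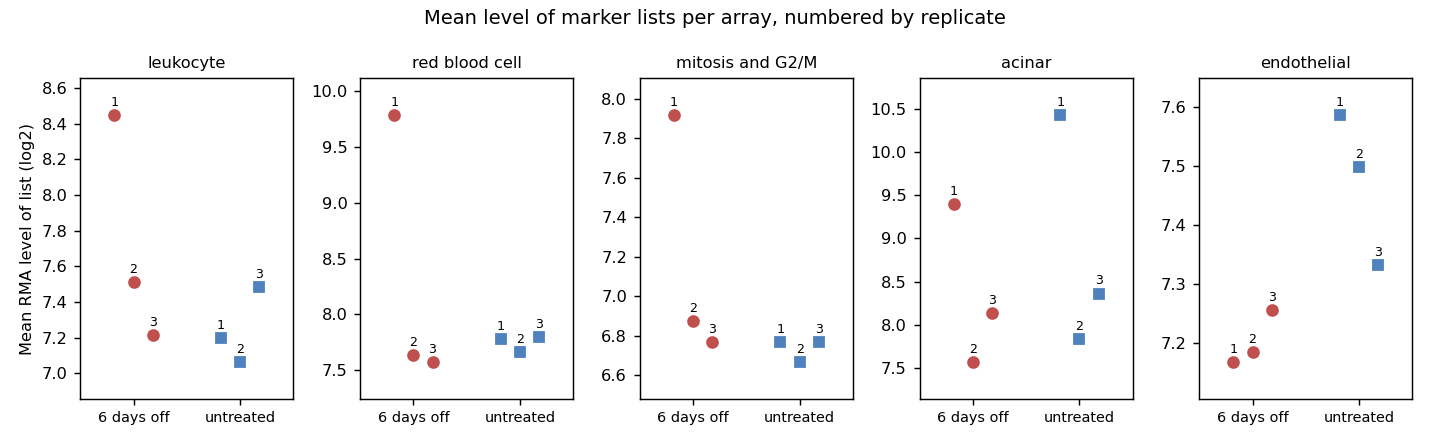
Mean log2 level of 5 marker lists in each array, 6-days-off islets as red circles and untreated islets as blue squares, each point numbered by replicate. Replicate 1 of the 6-days-off group lies highest for leukocyte, red blood cell and mitosis genes, and untreated replicate 1 lies highest for acinar genes.

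Of 8251 genes, 1115 (13.5%) were called at a limma adjusted p under 0.05, 459 (5.56%) higher and 656 (7.95%) lower in 6-days-off islets. The called rises had a median of 0.76 and reached 2.31, and the called falls had a median of -0.65 and reached -3.47. Differences over 2-fold were called for 117 genes higher (1.42%) and 86 lower (1.04%). The levels of the groups did not overlap for 2095 genes (25.4%), among them 1020 of the 1115 called. These counts depend on single arrays: without untreated replicate 1, 200 genes were called higher and 395 lower, and without 6-days-off replicate 1, 448 higher and 431 lower. With the 6 arrays fitted alone, limma called 14 genes higher and 16 lower. Of 96 called genes followed through the other settings, 62 kept their call whichever of the 6 arrays was left out.

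**Figure D2:**
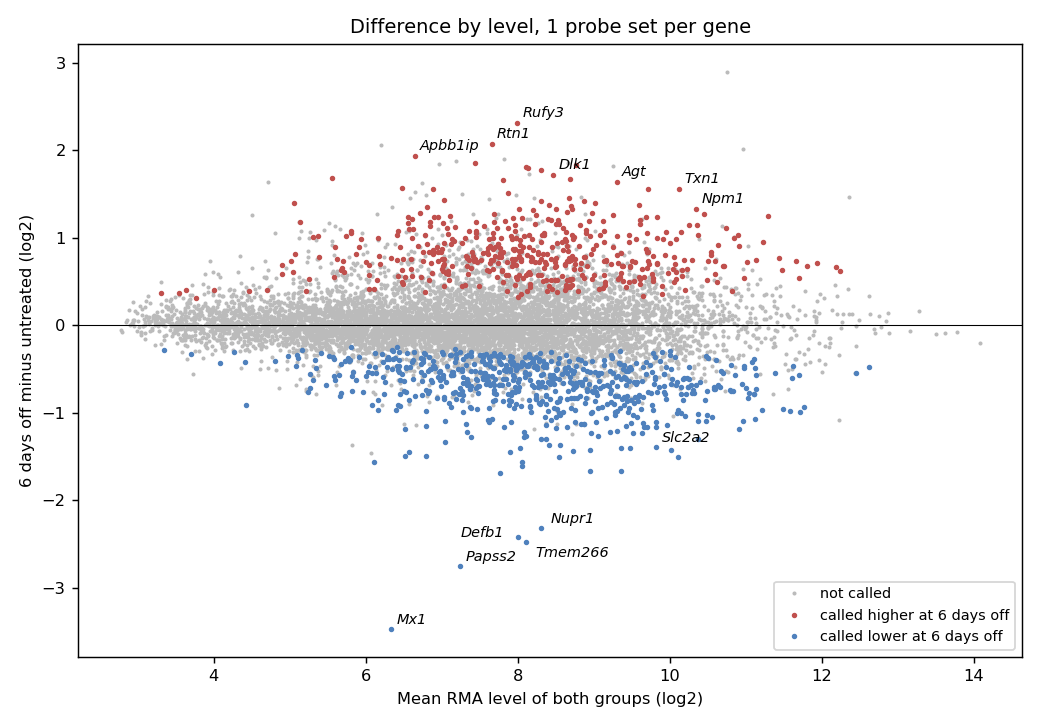
Difference between 6-days-off and untreated islets (log2, vertical) against the mean level of both groups (log2, horizontal) for 8251 genes, with called rises in red, called falls in blue and the others in grey. Mx1 and Papss2 lie furthest down at -3.47 and -2.75, and Rufy3 is the highest called gene at 2.31.

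The deepest fall was that of Mx1, an interferon-induced GTPase that blocks virus growth. It read 4.47, 4.53 and 4.80 in 6-days-off islets against 7.70, 8.29 and 8.23 in untreated islets. The 2 groups are far apart, and the difference was -3.47 ± 0.41, or 11.1-fold lower (adjusted p = 4.73e-05). The gene lies on chromosome 16 from 97447035 to 97462906 (GRCm38.p6). Probe sets for the bacterial genes Dap, Lys, Phe, Thr and Trpn averaged 3.52 to 7.06 in the 6-days-off arrays. The 6-days-off level of Mx1 lies within that range, so the fold may understate the change. The range is wide, with its top above the median level of the 6-days-off arrays (6.98 to 7), so this limit is not particular to Mx1.

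Papss2, which makes the sulfate donor used to sulfate proteoglycans and hormones, read 5.50, 5.99 and 6.10 in 6-days-off islets against 7.77, 8.86 and 9.22 in untreated islets. Each 6-days-off array was below every untreated one, by 6.74-fold on average (adjusted p = 4.73e-05). Tmem266, a membrane protein with a voltage-sensor domain, read 6.23, 7.20 and 7.17 against 9.39, 9.27 and 9.39, a difference of -2.48 ± 0.33. Defb1, a beta-defensin that kills bacteria at epithelial surfaces, read 6.07, 7.58 and 6.72 against 8.53, 9.35 and 9.77, a difference of -2.43 ± 0.35. Neither gene had overlapping groups, and their adjusted p were 0.000158 and 0.000241. Nupr1, a small stress-induced chromatin protein, read 7.58, 6.40 and 7.45 in 6-days-off islets against 10.90, 8.55 and 8.95 in untreated islets. Untreated replicate 1 sets much of that difference: it was -2.32 with all arrays (adjusted p = 0.0127) and -1.61 without that one (adjusted p = 0.0978), and the adjusted p was 0.0658 without 6-days-off replicate 2.

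The other falls among the 15 largest were of several kinds. Esrp1, a splicing regulator of epithelial cells, read 5.61, 6.15 and 5.55 in 6-days-off islets against 7.30, 7.08 and 7.41 in untreated islets, a difference of -1.49 ± 0.17 (adjusted p = 4.73e-05). Fam151a fell to 8.16, 8.76 and 8.65 in 6-days-off islets, against 10.14, 10.14 and 10.29 in untreated islets (adjusted p = 0.000147). Pkp2, a plaque protein of desmosomes, fell by 1.66 ± 0.39. Its second probe set fell by 0.74 and another, at -0.04, was not called. Metabolic genes among them were Bckdhb, a subunit of the enzyme that breaks down branched-chain keto acids (fell by 1.69), and Gnmt, which methylates glycine (fell by 1.5). Reep6, a shaper of the endoplasmic reticulum (ER), fell by 1.51, and Nkain1, Arhgef5, Ankzf1 and Hgfac fell by 1.51 to 1.61. Of the 4 Ankzf1 probe sets, one other was called lower at -0.93 and the remaining ones were at -0.19 and 0.22.

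**Figure D3:**
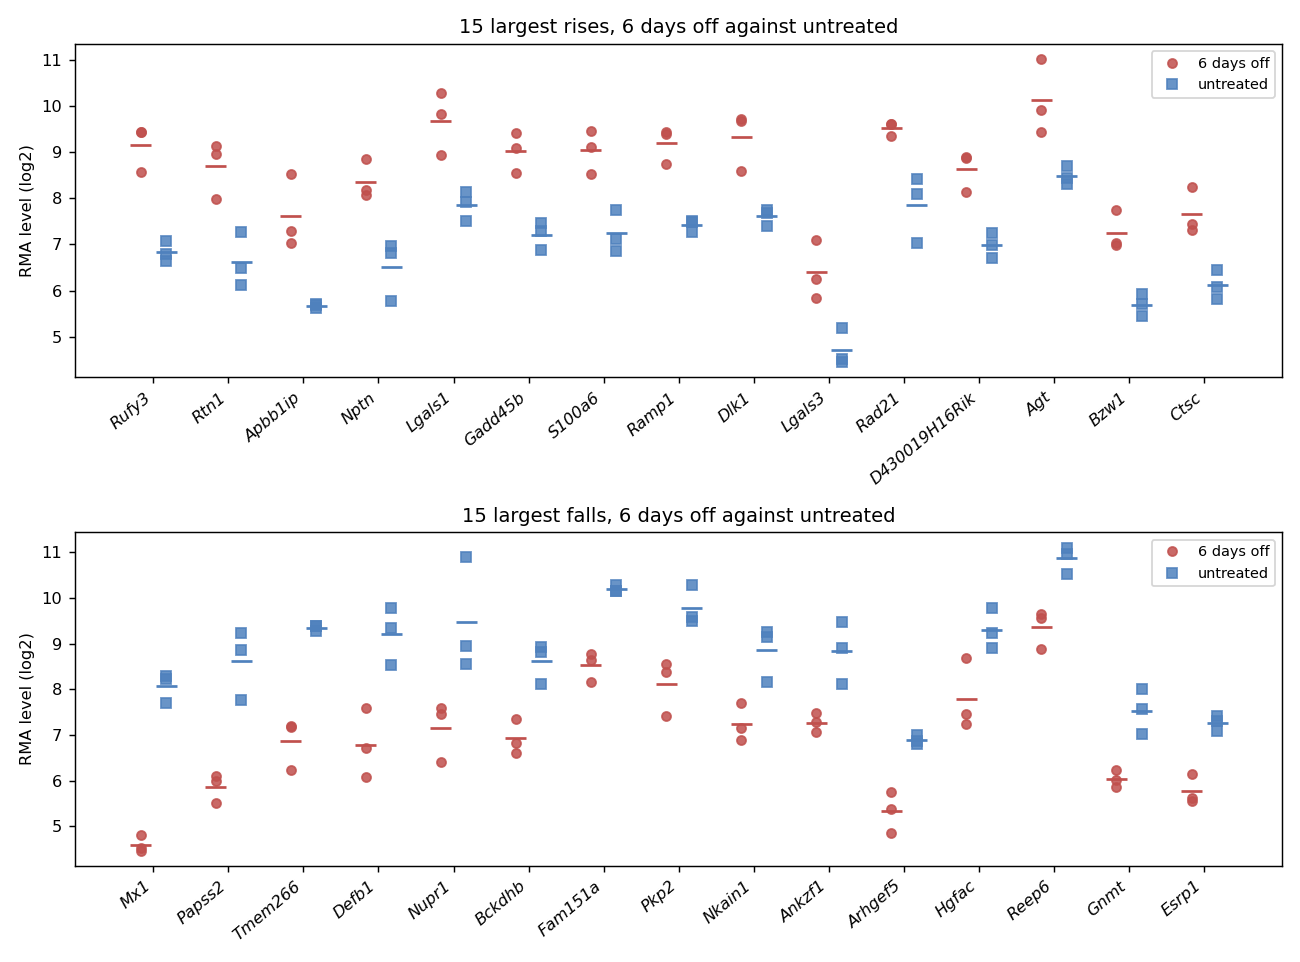
Log2 level in each array for the 15 largest rises (top) and the 15 largest falls (bottom) among called genes whose groups do not overlap, 6-days-off islets as red circles on the left of each pair and untreated islets as blue squares, with bars at the group means. The groups are separate for every gene drawn, which the choice of genes requires.

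Rufy3, a protein that links vesicles to the cytoskeleton and is known from neurons, had the largest called rise. It read 8.56, 9.44 and 9.44 in 6-days-off islets against 7.08, 6.63 and 6.79 in untreated islets, 4.97-fold higher (2.31 ± 0.30, adjusted p = 0.000120). Its groups are well apart, and it lies on chromosome 5 from 88564505 to 88651417. Ramp1, a partner that turns the calcitonin receptor-like receptor into the receptor for the neuropeptide CGRP, read 8.75, 9.39 and 9.44 against 7.49, 7.51 and 7.27 (1.77 ± 0.24, adjusted p = 0.000177). Nptn, a cell adhesion protein of synapses, read 8.18, 8.06 and 8.84 against 5.77, 6.81 and 6.96 (1.85 ± 0.33, adjusted p = 0.00140). All 3 genes kept their calls whichever array was left out. Rtn1, an ER protein of neuroendocrine cells, was 2.07 ± 0.55 higher (adjusted p = 0.0176), but leaving out any 1 of 4 arrays ended the call, with adjusted p up to 0.0836 without untreated replicate 1.

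Dlk1, an imprinted gene for a membrane protein of the Notch ligand type found in fetal tissues and endocrine cells, read 8.58, 9.68 and 9.72 in 6-days-off islets against 7.67, 7.75 and 7.4 in untreated islets. No arrays overlap, and the rise was 1.72 ± 0.29 or 3.29-fold (adjusted p = 0.000869). Agt, the precursor of the angiotensins, read 9.44, 9.91 and 11.01 against 8.43, 8.70 and 8.31 (1.64 ± 0.33, adjusted p = 0.00296). D430019H16Rik, which has no gene name in the annotation used, read 8.13, 8.87 and 8.89 against 7.25, 6.70 and 6.98 (1.65 ± 0.21). Among the rest of the 15 were Rad21, a core cohesin subunit (9.35, 9.61 and 9.61 against 7.04, 8.42 and 8.09), Gadd45b, a stress sensor (1.81 ± 0.35), and Bzw1, a regulator of translation start (1.56 ± 0.28). These 6 genes kept their calls in every fit that left out 1 array.

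Other large rises were highest in replicate 1 of the 6-days-off group. Apbb1ip, an adaptor of integrin activation best known in leukocytes, read 8.53, 7.02 and 7.28 in 6-days-off islets against 5.71, 5.68 and 5.63 in untreated islets. Without replicate 1 of the 6-days-off group its difference was 1.48 with adjusted p = 0.0691, against 1.94 and 0.0112 with it. The galectins Lgals1 and Lgals3, lectins that bind beta-galactosides, and the calcium-binding S100a6 were 1.82, 1.68 and 1.79 higher, with adjusted p = 0.0368, 0.0438 and 0.0412. Without that array they were at 1.52, 1.32 and 1.58 and none was called (adjusted p = 0.140, 0.178 and 0.133), and leaving out most other arrays also ended these calls. The leukocyte marker mean of that array is given above, and its part in these rises was not tested.

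Among beta cell genes, those of glucose sensing and its coupling to secretion were lower. Of 13 measured genes 6 fell and none rose, 46.2% against 7.95% of all genes, with a median difference of -0.65 against 0.00 over all genes. The 6 include Ero1b, an ER folding gene that is also counted in the ER folding list below, so the share is not one of glucose sensing alone. Slc2a2, the glucose transporter, read 7.95, 9.18 and 10.24 in 6-days-off islets against 9.95, 10.63 and 10.98 in untreated islets, 2.63-fold lower (adjusted p = 0.0320). Replicate 3 of the 6-days-off group overlaps the untreated range, and without replicate 1 of the 6-days-off group the difference was -0.81 with adjusted p = 0.203. G6pc2, the islet glucose-6-phosphatase that opposes glucokinase, read 9.89, 10.69 and 11.62 against 11.23, 11.90 and 11.97 (adjusted p = 0.0485), and -0.55 (adjusted p = 0.282) without that same array. Its replicate 3 also lay within the untreated range.

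Ero1b, which reoxidizes the enzyme that forms disulfide bonds in proinsulin, read 10.76, 10.92 and 11.59 in 6-days-off islets against 11.89, 12 and 12.33 in untreated islets, a difference of -0.98 ± 0.19 (adjusted p = 0.00199) that was called whichever array was left out. Cacna1c, a pore subunit of L-type calcium channels, fell by 0.47 ± 0.13, and Gpd1 and Pcx were also called lower. The channel subunit Abcc8 was at -0.78 ± 0.30 (adjusted p = 0.101) with its arrays not overlapping, and its partner Kcnj11 at -0.14 ± 0.08 (adjusted p = 0.267). Without 6-days-off replicate 1 the list had 2 falls, without untreated replicate 1 it had 5, with acinar and leukocyte marker levels as covariates 3, and with the 6 arrays fitted alone 0, with medians of -0.54, -0.64, -0.47 and -0.65. The list's mean level was 8.47, 8.74 and 9.11 in 6-days-off islets against 9.23, 9.30 and 9.40 in untreated islets, lowest in the array with the most leukocyte markers; that array's part in the falls was not tested.

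Granule genes had no call. None of 19 genes of prohormone processing and granules was called (median 0.03), though 2 were higher without 6-days-off replicate 1, and Pcsk1, a convertase that cuts proinsulin, read 7.38, 8.57 and 8.72 in 6-days-off islets against 7.18, 8.52 and 8.88 in untreated islets. Of 13 beta cell transcription factors Pdx1 alone was called (7.69%, near the 7.95% of all genes), at 6.19, 6.41 and 6.64 against 7.12, 6.94 and 7.11 (adjusted p = 0.0368). Its groups do not overlap, but leaving out any of 5 arrays ended the call (adjusted p up to 0.145). Neurod1 was at -0.64 ± 0.30 (adjusted p = 0.187). Of 11 genes of other islet hormones and cells 2 fell (18.2% against 7.95% of all genes) and none was called lower without 6-days-off replicate 1 or untreated replicate 1. Ghrl, the gene of ghrelin, read 6.97, 7.09 and 7.02 in 6-days-off islets against 7.46, 7.33 and 7.27 in untreated islets (adjusted p = 0.0317). With an array left out its adjusted p reached 0.139. Its second probe set went the other way at 0.30 and was not called, and the call was lost when its probe sets were averaged. Th, the enzyme that begins catecholamine synthesis and is found in some beta cells, fell by 1.16 ± 0.29 (adjusted p = 0.0116; 0.0570 without 6-days-off replicate 1 and 0.0517 without untreated replicate 1). Pancreatic polypeptide, Ppy, read 12.31, 13.59 and 13.35 in 6-days-off islets against 11.25, 11.65 and 11.95 in untreated islets, without overlap and not called (adjusted p = 0.111). It was called higher with array weights, in the fit of 5 groups, with the marker covariates (adjusted p = 0.0339) and without the 4 most leukocyte-rich arrays of the series.

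Of 49 genes of ER folding and the unfolded protein response, 6 rose and 8 fell (12.2% and 16.3%, against 5.56% and 7.95% of all genes), with a median of 0.00. Creld2, an ER chaperone that is induced by misfolded protein, read 7.27, 7.49 and 7.65 in 6-days-off islets against 8.78, 8.65 and 8.66 in untreated islets. Its 6-days-off arrays all lay below the untreated ones, and the difference of -1.23 ± 0.20 (adjusted p = 0.000763) held in every alternative fit run. Creld2 and Ero1b fell together and are the 2 called genes, of 556 lower ones with a promoter entry, whose promoter window holds the ER stress response element, searched on both strands as CCAAT and CCACG with any 9 bases between them. The element was in 0.36% of lower genes and in no higher gene of 377. It was in 12 of 6576 array genes (0.182%) and in 0.119% of all 32851 promoters. Counts this small do not set the lower genes apart from all array genes. Their windows, 250 bases before to 50 after the start from RefSeq on GRCm38.p6, are shown because they carry this shared match, in capitals and read here on the opposite strand. Creld2 is at chr15:88819396-88819695 and Ero1b at chr13:12565633-12565932, both on the plus strand.
Creld2: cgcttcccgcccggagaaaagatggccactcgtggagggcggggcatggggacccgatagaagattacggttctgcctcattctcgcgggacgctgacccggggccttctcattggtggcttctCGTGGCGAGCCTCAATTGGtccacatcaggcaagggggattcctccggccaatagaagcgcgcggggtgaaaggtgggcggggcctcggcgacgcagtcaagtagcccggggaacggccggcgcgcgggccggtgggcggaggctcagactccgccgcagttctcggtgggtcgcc
Ero1b: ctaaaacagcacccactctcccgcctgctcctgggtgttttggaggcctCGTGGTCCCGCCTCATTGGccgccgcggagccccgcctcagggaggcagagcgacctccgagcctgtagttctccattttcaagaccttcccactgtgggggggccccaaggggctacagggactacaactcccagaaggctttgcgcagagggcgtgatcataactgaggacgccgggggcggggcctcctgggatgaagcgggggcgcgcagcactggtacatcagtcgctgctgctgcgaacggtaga
A match in these letters is a description, and binding was not measured. Xbp1, a factor that binds such elements, read 8.74, 9.14 and 9.36 in 6-days-off islets against 9.73, 9.77 and 9.81 in untreated islets, without overlap and not called (adjusted p = 0.0639), although it was called lower in 5 of the other settings, among them the Gapdh covariate (adjusted p = 0.0416). Hspa5, the main ER chaperone, read 10.04, 10.84 and 11.49 against 9.85, 10.76 and 10.93 (adjusted p = 0.607). In the channel by which proteins enter the ER, Sec61a1 fell by 0.94 ± 0.21 while Sec61b rose by 0.83 ± 0.20, and Ssr3, a subunit of the adjoining complex, rose by 1.15 ± 0.25. A second Sec61a1 probe set also fell (-0.70), whereas the other Ssr3 probe sets were at -0.10 and 0.20 and not called.

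In protein synthesis, most falls were of enzymes that load tRNAs with amino acids. The list of translation factors and tRNA synthetases had 4 of 49 genes higher and 7 lower (median -0.05), shares of 8.16% and 14.3% against 5.56% and 7.95% of all genes. Of these 7 falls 6 encode synthetases, of which 19 were measured, with 1 higher and 12 not called. With the 6 arrays fitted alone the list had 1 fall. Nars, for asparagine, read 7.51, 7.66 and 7.99 in 6-days-off islets against 9.04, 9 and 9.23 in untreated islets, a difference of -1.37 ± 0.22 (adjusted p = 0.000674) that held in every alternative fit run. Mars1, for methionine, fell by 0.95 ± 0.18, and Lars, Sars, Wars and Yars fell by 0.61 to 0.90. Rars, for arginine, went the other way, reading 9, 8.98 and 8.92 against 8.17, 8.27 and 8.37 (adjusted p = 0.0151). Yars read 7.69, 7.61 and 8.22 against 9.22, 8.46 and 8.54 (adjusted p = 0.0100), with adjusted p = 0.0764 without untreated replicate 1 and no call without 6-days-off replicate 2, and its second probe set was at 0.18.

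Several synthetase genes are known targets of Atf4, a factor made during amino acid shortage and ER stress, and in a set of 28 genes of this stress response, put together after values were seen, 6 fell (21.4% against 7.95% of all genes), Ppp1r15a rose and 21 were not called (median -0.10). Ppp1r15a, which restores translation after stress, read 9.35, 8.79 and 8.80 in 6-days-off islets against 8.77, 8.30 and 8.29 in untreated islets (adjusted p = 0.0280). Ddit3, the stress factor CHOP, read 7.94, 7.96 and 8.11 in 6-days-off islets against 9.31, 8.76 and 8.78 in untreated islets (adjusted p = 0.0123; 0.0794 without untreated replicate 1). Trib3, a pseudokinase that restrains insulin signalling, fell by 0.32 ± 0.10 (adjusted p = 0.0433), a call that leaving out any of 5 arrays ended. Yars and Nupr1, both called lower, hold TGATGNAA, the C/EBP-ATF response element searched on both strands, and are shown for that match in capitals. It was in 2.88% of lower genes, 1.33% of higher genes and 3% of array genes with a promoter entry, so its share among lower genes was near that of all genes. Yars is at chr4:129189653-129189952 on the plus strand and Nupr1 at chr7:126625421-126625720 on the minus strand, where the element reads on the opposite strand.
Yars: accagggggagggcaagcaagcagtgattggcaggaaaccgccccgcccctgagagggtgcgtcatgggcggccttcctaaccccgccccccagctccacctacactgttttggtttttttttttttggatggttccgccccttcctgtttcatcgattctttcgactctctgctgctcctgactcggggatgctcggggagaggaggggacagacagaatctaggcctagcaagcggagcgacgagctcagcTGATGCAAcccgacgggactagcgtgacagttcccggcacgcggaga
Nupr1: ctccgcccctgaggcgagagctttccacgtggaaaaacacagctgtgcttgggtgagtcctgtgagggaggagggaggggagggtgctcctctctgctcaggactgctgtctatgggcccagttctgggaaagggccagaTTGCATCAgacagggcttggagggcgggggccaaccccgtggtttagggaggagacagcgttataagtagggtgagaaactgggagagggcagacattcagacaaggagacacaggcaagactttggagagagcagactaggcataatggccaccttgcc

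Genes that Myc is best known for did not move as a group. Of 32 classical Myc-induced genes 3 rose (9.38% against 5.56% of all genes) and none fell (median 0.00). Of 63 ribosome biogenesis genes 6 rose and 6 fell (9.52% each, against 5.56% and 7.95%; median -0.02). Npm1, a nucleolar chaperone of ribosome assembly, read 10.60, 11.02 and 11.40 in 6-days-off islets against 8.79, 10.02 and 10.22 in untreated islets (1.33 ± 0.28, adjusted p = 0.00454). Nop56, a core protein of the particles that methylate ribosomal RNA, read 9.68, 9.97 and 9.49 against 11.34, 10.40 and 11.32 (-1.31 ± 0.25, adjusted p = 0.00228), and its second probe set fell by 1.21. These genes thus moved in opposite directions, each without overlap. Of 32 cytosolic ribosomal protein genes 2 rose and 1 fell (6.25% and 3.12%). The Myc, Max and Mad family of 13 genes had 1 member called higher (7.69% against 5.56% of all genes) and none lower. It was Mxi1, a Max partner that opposes Myc, at 7.10, 7.44 and 7.68 against 6.07, 6.91 and 6.73 (adjusted p = 0.0253). Leaving out any 1 of 3 arrays ended the call, with adjusted p = 0.161 without untreated replicate 1.

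The proteasome, which degrades proteins tagged with ubiquitin, had 9 rises among 35 genes (25.7% against 5.56% of all genes) and 1 fall. Psma5, of the outer ring of its core, read 10.01, 10.40 and 10.19 in 6-days-off islets against 8.65, 9.15 and 9.21 in untreated islets (1.20 ± 0.18, adjusted p = 0.000382). Psmb2, of the inner ring, read 8.92, 8.60 and 9.07 against 7.47, 7.89 and 8.08 (1.05 ± 0.19). Both are separate between groups. The others were Psma2, Psma4, Psma7, Psmb1, Psmb4, Psmc1 and Psmd4. The 1 fall, Psmd11 of the lid, was -1.12 ± 0.23, but another of its probe sets rose by 0.65 (adjusted p = 0.0400) and a further one was at 0.18. The list had 8 rises without 6-days-off replicate 1, 4 without untreated replicate 1 and 1 with the 6 arrays alone, and its mean level was 8.76, 8.83 and 8.99 in 6-days-off islets against 8.37, 8.61 and 8.70 in untreated islets.

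Of 66 oxidative phosphorylation genes 12 rose (18.2% against 5.56% of all genes) and 5 fell (7.58% against 7.95%), with a median of 0.15. With the 6 arrays fitted alone none was called. Ndufa9, a subunit of complex I, the entry point for electrons from NADH, read 9.27, 9.21 and 8.85 in 6-days-off islets against 7.48, 8.03 and 8.37 in untreated islets (1.15 ± 0.17, adjusted p = 0.000309). Ndufab1, the acyl carrier protein bound to complex I, rose by 1.40 ± 0.26 and Ndufv2 by 1.19 ± 0.23. Sdhb, the iron-sulfur subunit of succinate dehydrogenase, read 9.84, 9.98 and 9.98 against 8.76, 9.19 and 9.02 (adjusted p = 0.00106), and Sdha and Sdhc were called higher with it. Among the falls, Uqcr11 of complex III read 8.29, 8.46 and 9.13 against 9.55, 10.02 and 9.50 (adjusted p = 0.00506). Without untreated replicate 1 the list had 7 rises and 2 falls, and without 6-days-off replicate 1 13 and 2. Glycolysis genes had 2 falls of 22 (9.09%), Slc2a2 and the enolase Eno3, and no rise.

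The list of 36 redox and sulfur genes had 6 rises and 4 falls (16.7% and 11.1%, against 5.56% and 7.95% of all genes), and 4 of the rises were of the thioredoxin system, which reduces disulfides and peroxides. Txn1, thioredoxin, read 11.15, 10.67 and 10.86 in 6-days-off islets against 8.93, 9.23 and 9.85 in untreated islets, 2.94-fold higher (adjusted p = 0.000425). Its lowest 6-days-off array was above its highest untreated one. Txnrd2, the mitochondrial reductase of thioredoxin, rose by 1.02 ± 0.18, Prdx2, a cytosolic peroxiredoxin, by 1.02 ± 0.20, and Prdx3, the mitochondrial one, by 1.02 ± 0.25. Prdx3 missed the threshold without untreated replicate 1 (adjusted p = 0.0687) and without 6-days-off replicate 3, and the other Prdx2 probe sets were at 0.14 and 1.07 and not called. The falls were Papss2, Nqo1 and the metallothioneins Mt1 and Mt2, which bind zinc; Mt2 read 11.14, 11.48 and 11.01 against 11.92, 12.08 and 12.61 (adjusted p = 0.0183; up to 0.0835 with an array left out), and Mt1 fell by 0.86 (adjusted p = 0.0334; up to 0.130).

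**Figure D4:**
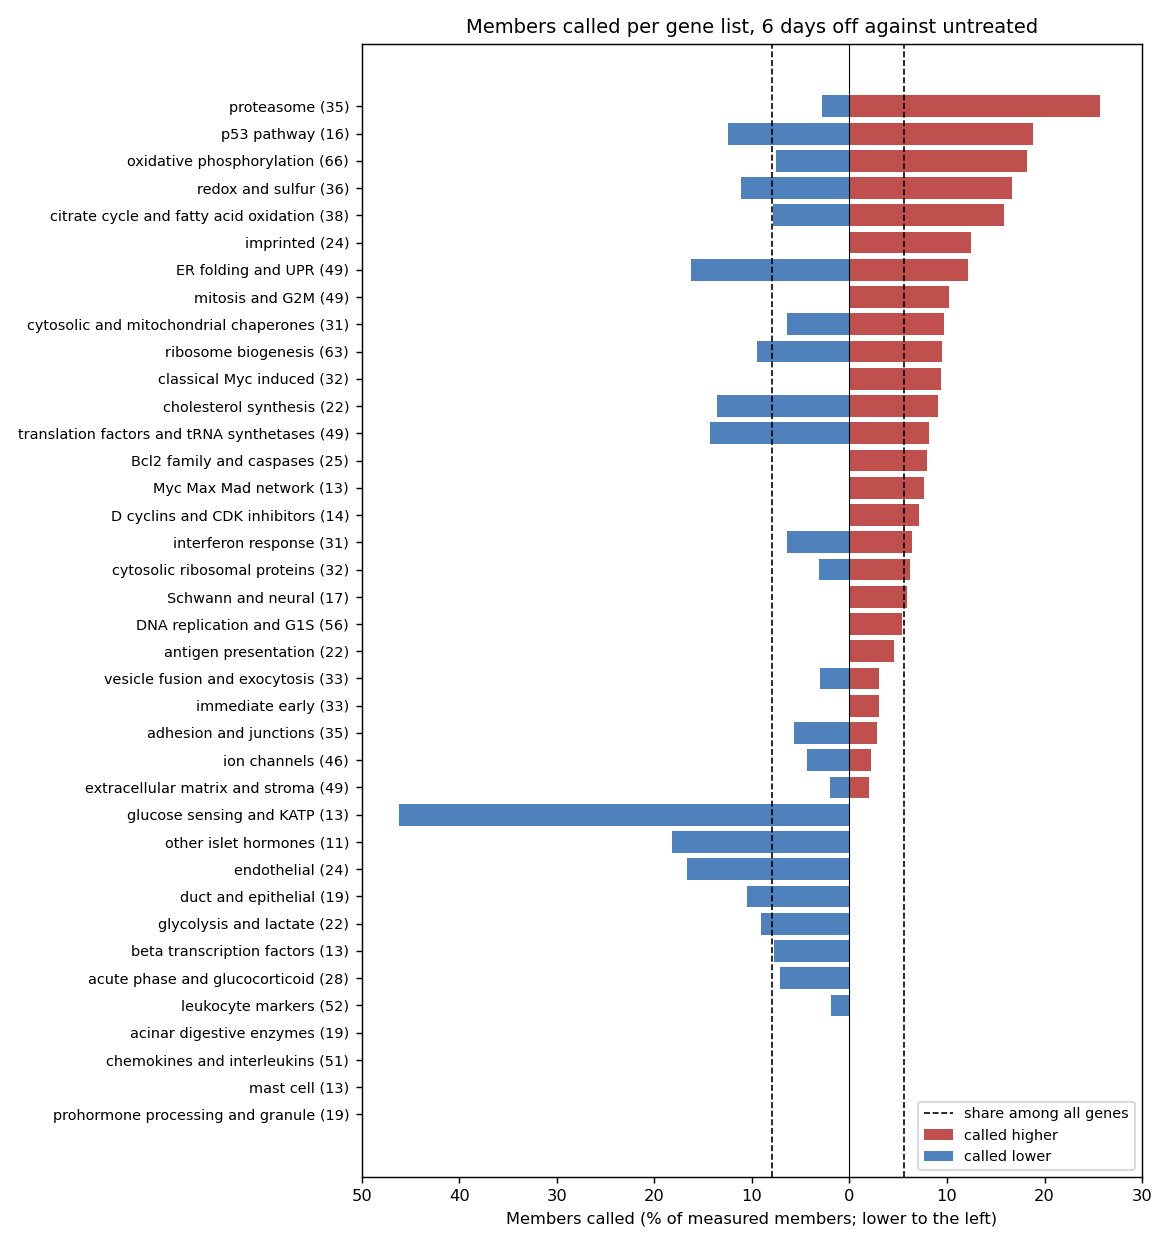
Share of the measured members of each gene list of 10 or more genes (number of members in brackets) called higher (red, to the right) or lower (blue, to the left) in 6-days-off islets, with dashed lines at the shares among all genes, 5.56% higher and 7.95% lower. Of the lists drawn, the proteasome bar reaches furthest right at 25.7% and the glucose-sensing bar furthest left at 46.2%.

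Of 49 mitosis genes 46 had a positive difference, against 4104 of all 8251 genes. In this list 5 were called higher (10.2% against 5.56% of all genes) and none lower (median 0.36). Of 56 DNA replication genes 3 were called higher (5.36%, near the share of all genes) and none lower (median 0.27). The proliferation marker Mki67 read 8.99, 5.45 and 5.03 in 6-days-off islets against 5.91, 5.84 and 6.37 in untreated islets, so that replicate 1 lay far above and the other replicates below every untreated array. Without replicate 1 of the 6-days-off group the mitosis list had a median of 0.04 and 3 calls, the replication list a median of 0.08 and 1 call, and Mki67 a difference of -0.80 (adjusted p = 0.454). Bub3, of the spindle checkpoint, read 9.35, 9.14 and 8.95 against 7.81, 7.8 and 8.52 (adjusted p = 0.00106), and Orc6, of the origin recognition complex, read 7.78, 7.84 and 7.87 against 7.07, 6.99 and 7.26 (adjusted p = 0.00807). The Bub3 and Orc6 calls were kept whichever array was left out. Stmn1, the largest called rise of the mitosis list, was 1.41 higher (adjusted p = 0.0131). It missed the threshold without 6-days-off replicate 1 (0.96, adjusted p = 0.0862) and without untreated replicate 1 (adjusted p = 0.0652). The other Stmn1 probe set was at 0.03. The replication genes Rpa1 and Rpa3 were called (adjusted p = 0.0345 and 0.0333), with adjusted p up to 0.138 and 0.157 with an array left out. Plk4, which starts centriole copying, was 1.18 higher, and 0.75 without 6-days-off replicate 1. Bub3's other probe set was at -0.03.

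Among 16 p53 pathway genes 3 rose and 2 fell (18.8% and 12.5%, against 5.56% and 7.95% of all genes). Gadd45b read 8.55, 9.09 and 9.40 in 6-days-off islets against 7.46, 6.87 and 7.28 in untreated islets (adjusted p = 0.00199), with its other probe set 0.63 higher and called. Ccng2, a cyclin G that slows the cell cycle, rose by 1.17 ± 0.27. Mdm4, an inhibitor of p53, read 8.92, 9.41 and 8.81 against 10.14, 9.88 and 10.26 (adjusted p = 0.000558), while its other probe set was at -0.03. Cdkn1a, the p53 target that halts the cycle, was at 0.04 ± 0.20, and its second probe set at 0.74 ± 0.25 (adjusted p = 0.0643). Of 25 Bcl2 family and caspase genes, Cidea and Casp2 were called higher (8%, against 5.56% of all genes) and none lower. Without untreated replicate 1 the list had 0 calls, and without 6-days-off replicate 1 it had 1. Rbl2, a relative of the retinoblastoma protein, was 0.82 ± 0.20 higher.

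The interferon list, in which Mx1 belongs, had 2 of 31 genes higher and 2 lower (6.45% each, against 5.56% higher and 7.95% lower among all genes), shares near those of all genes (median 0.18). Mx2, the neighbour and relative of Mx1, read 5.21, 5.20 and 4.57 in 6-days-off islets against 5.62, 5.6 and 5.63 in untreated islets (adjusted p = 0.0207; 0.120 without 6-days-off replicate 3, and not called without untreated replicate 1). Usp18, which removes the ubiquitin-like protein ISG15 from its targets, read 9.06, 9.70 and 9.72 against 8.11, 8.78 and 8.83 (adjusted p = 0.00382). Isg15 itself read 8.80, 7.55 and 7.50 against 7.19, 6.74 and 6.89 (adjusted p = 0.0330), without overlap and highest in the array with the most leukocyte markers. Without that array its difference was 0.58 with adjusted p = 0.210, and leaving out any untreated array also ended the call. The promoter window of Isg15 is shown because it holds 3 overlapping matches to the interferon-stimulated response element, searched on both strands as GAAA, any 2 bases and GAAA again, in capitals. It is at chr4:156200769-156201068 on the minus strand of GRCm38.p6, from RefSeq. The motif was in 3.98% of higher genes, 2.34% of lower genes and 3.89% of array genes with an entry.
Isg15: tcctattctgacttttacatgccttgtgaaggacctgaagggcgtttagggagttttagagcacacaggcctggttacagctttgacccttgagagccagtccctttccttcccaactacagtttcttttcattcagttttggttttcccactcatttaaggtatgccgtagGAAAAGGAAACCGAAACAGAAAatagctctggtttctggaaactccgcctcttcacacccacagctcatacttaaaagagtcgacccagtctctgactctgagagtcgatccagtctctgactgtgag
Of 22 antigen presentation genes 1 was called higher (4.55%, near the 5.56% of all genes) and none lower. It was Psmb9, an immunoproteasome subunit (adjusted p = 0.0416). Without 6-days-off replicate 1 its adjusted p was 0.252, and it was not called without most other arrays. B2m read 11.48, 11.24 and 11.32 in 6-days-off islets against 9.85, 10.20 and 10.97 in untreated islets without a call (adjusted p = 0.0956). B2m was called with array weights, in the fit of 5 groups and without untreated replicate 3. Ptprc, the pan-leukocyte marker CD45, read 8.59, 7.71 and 6.18 against 6.33, 5.98 and 6.88. Of 52 leukocyte markers 42 had a positive difference (median 0.32), against 4104 of all 8251 genes, and the median was 0.02 without 6-days-off replicate 1. None of 51 chemokine and interleukin genes was called.

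A few genes of blood vessels and of their growth factors were lower. Of 24 genes on the endothelial list 4 fell (16.7% against 7.95% of all genes) and none rose. The count was also 4 without 6-days-off replicate 1 or untreated replicate 1, and 0 with the 6 arrays fitted alone. The list mixes endothelial markers with growth factors for vessels. Among the falls, only Emcn and Tie1 are endothelial markers, while Vegfa and Vegfb are growth factors, so the share is not one of endothelial markers alone. Vegfa, the main growth factor for vessels, which beta cells themselves make, read 6.93, 7.72 and 6.88 in 6-days-off islets against 8.90, 8.59 and 8.39 in untreated islets, 2.73-fold lower (adjusted p = 0.00192). Its relative Vegfb read 8.83, 9.06 and 9.09 against 9.98, 9.72 and 9.90 (adjusted p = 0.000887). Emcn, a surface sialomucin of capillaries, read 8.49, 9.32 and 10.07 against 10.84, 10.52 and 10.82 (adjusted p = 0.00420), and Tie1, an endothelial receptor, fell by 1.27 ± 0.28. One other Emcn probe set fell by 1.22 and another was at -0.11, and the other Tie1 probe set was at -0.33. None of the other 20 genes was called. Among defining markers, the adhesion protein Pecam1 was at 0.08 ± 0.12, Cdh5, of endothelial junctions, at 0.00 ± 0.30 and Kdr, the receptor for Vegfa, at -0.16 ± 0.14, whereas Tek, the receptor for angiopoietins, was at -0.75 ± 0.28 (adjusted p = 0.0891), Eng at -0.53 ± 0.21 (adjusted p = 0.107), Icam2 at -0.47 ± 0.22 (adjusted p = 0.182) and Nos3 at -0.28 ± 0.11 (adjusted p = 0.104). The median of the list was -0.05, and 10 of the 24 differences were positive, against 4104 of all 8251 genes. Of 19 duct and epithelial genes Krt7 and Krt18 were called lower (10.5%), and neither was called without 6-days-off replicate 1 (adjusted p = 0.226 and 0.168).

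Lipid synthesis genes had few calls, with 2 of 22 higher and 3 lower (9.09% and 13.6%, against 5.56% and 7.95% of all genes). Without 6-days-off replicate 1 the list had 2 higher and 1 lower, and without untreated replicate 1 it had 1 of each. Fasn, fatty acid synthase, read 9.05, 9.34 and 9.53 in 6-days-off islets against 10.29, 10.33 and 10.05 in untreated islets (adjusted p = 0.00898), whereas the sterol enzymes Sqle and Idi1 rose by 0.77 ± 0.16 and 1.02 ± 0.25. Idi1 had adjusted p = 0.0632 without untreated replicate 1. Of 24 imprinted genes Dlk1, Ndn and Sgce rose (12.5% against 5.56% of all genes). Ndn, a growth-restraining protein of neurons, read 8.77, 9.45 and 10.06 against 8.20, 8.50 and 8.42 (adjusted p = 0.0110; not called without 6-days-off replicate 3 or untreated replicate 1), and Sgce, a sarcoglycan, read 7.43, 7.37 and 7.28 against 6.83, 6.79 and 6.66 (adjusted p = 0.0122). Meg3, from the same imprinted region as Dlk1, read 12.07, 12.95 and 11.44 against 13.03, 12.60 and 12.48 (adjusted p = 0.214).

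The named genes took different positions relative to islets taken at the end of the drug course. In a direct comparison with 21 days of drug, 28 of 8251 genes (0.339%) were called in 6-days-off islets, 10 higher and 18 lower. Dlk1 averaged 7.61 in untreated islets, 11.31 after 21 days, then 10.62, 10.25 and 9.33 at 2, 4 and 6 days off. Its 6-days-off level was 1.98 ± 0.29 below that at 21 days (adjusted p = 0.00259) and still above untreated islets. Cox6b2, a cytochrome oxidase subunit normally found in testis, averaged 6.01 in untreated islets, 9.10 after 21 days, and 9.17, 8.03 and 7.21 at 2, 4 and 6 days off. Its difference from 21 days was -1.89 ± 0.23 (adjusted p = 0.000741), and that from untreated islets 1.21 ± 0.23 (adjusted p = 0.00211). Cidea, a lipid droplet protein first described as a cell death inducer, averaged 8.94 after 21 days and 7.18 at 6 days off (adjusted p = 0.00158), against 6.34 in untreated islets (adjusted p = 0.0281; up to 0.111 with an array left out). One of the other Cox6b2 probe sets was called higher than untreated and the other was at -0.51.

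Creld2 showed the mirror image, averaging 8.70 in untreated islets, 6.42 after 21 days, and 7.03, 7.61 and 7.47 at 2, 4 and 6 days off. Its 6-days-off level was 1.05 ± 0.20 above that at 21 days (adjusted p = 0.0324) and below untreated islets. Xbp1 averaged 7.91 after 21 days and 9.08 at 6 days off, a difference of 1.17 ± 0.24 (adjusted p = 0.0381). Other genes showed no detectable return. Mx1 averaged 4.31 after 21 days, 4.47 and 4.36 at 2 and 4 days off and 4.60 at 6 days off, 0.29 ± 0.41 above 21 days (adjusted p = 0.802). Papss2 averaged 5.40 after 21 days and 5.86 at 6 days off (adjusted p = 0.566), Esrp1 5.88 and 5.77 (adjusted p = 0.825), and Rufy3 9.12 and 9.15 (adjusted p = 0.982). With 3 arrays a group, such p-values do not show that levels stayed the same. Txn1 averaged 9.34 in untreated islets, 10.32 after 21 days, and 10.62, 10.71 and 10.89 at 2, 4 and 6 days off, with the last not called against 21 days (adjusted p = 0.282). These comparisons share the 6-days-off arrays.

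**Figure D5:**
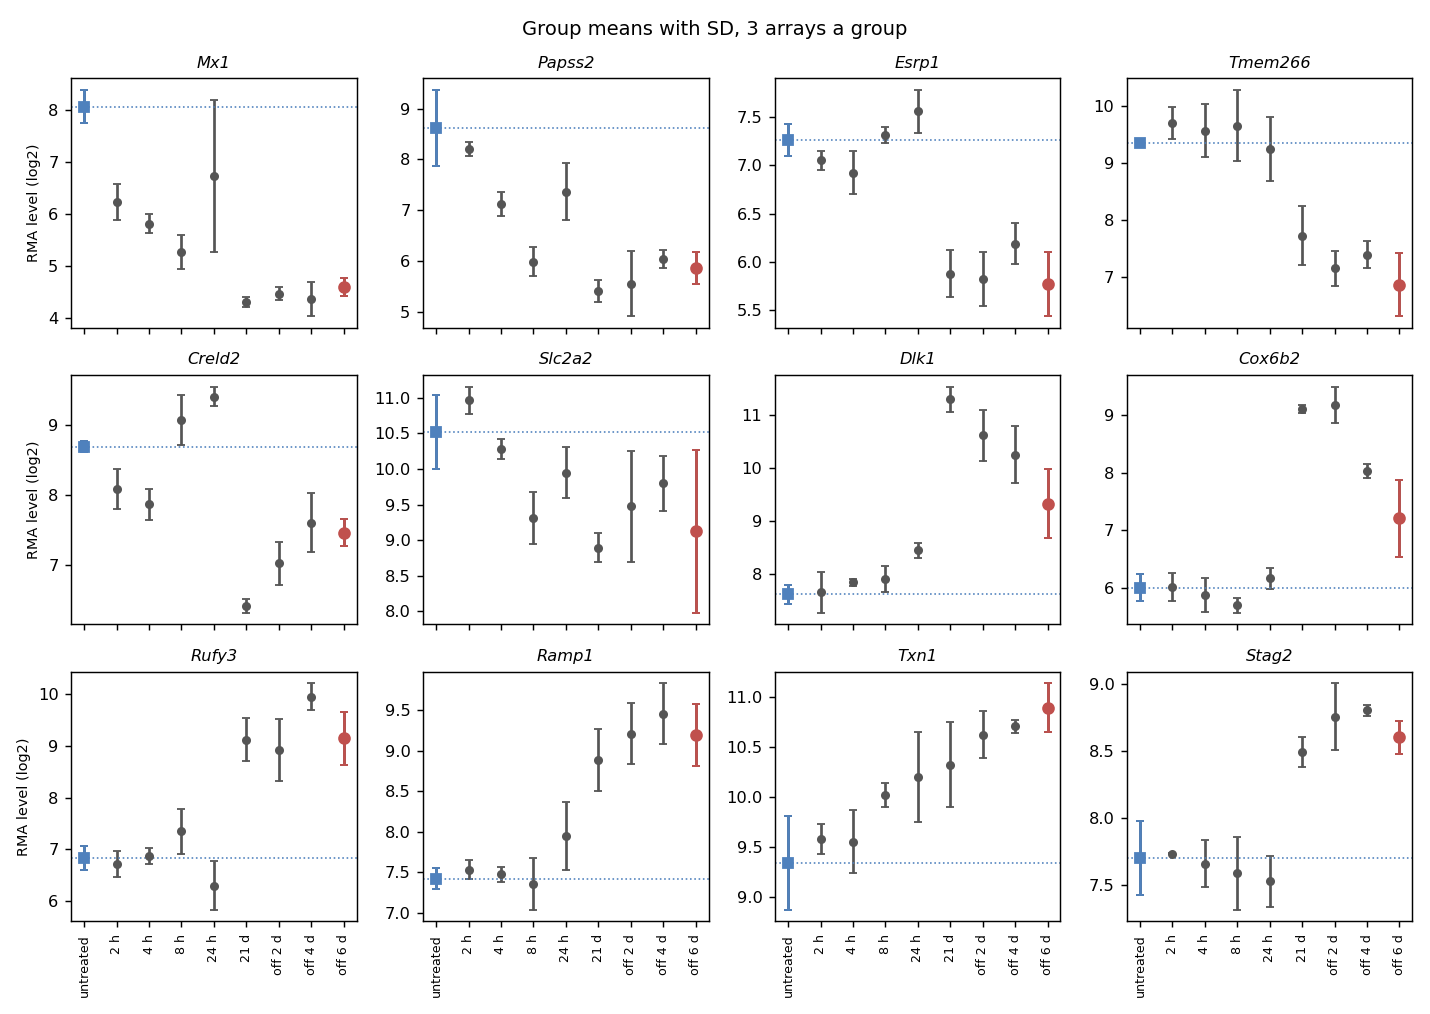
Group means of the log2 level with SD (3 arrays a group) for 12 genes, in time order: untreated (blue square), 2 to 24 h after an injection, 21 days of drug, and 2, 4 and 6 days off (red), with the dotted line at the untreated mean. Dlk1, Cox6b2 and Creld2 at 6 days off lie between their 21-day and untreated means, and Mx1, Papss2, Esrp1 and Rufy3 lie near their 21-day means.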

How the data were processed

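Laser-captured islets of 27 samples were measured on Affymetrix arrays, 3 in each of 9 groups taken from the labels; 6 of the arrays are compared here. Per the labels, RNA went through 2 amplification rounds and was tagged with biotin. Per the submitters' processing notes, the authors made the deposited log2 values with RMA. No source used here gives the version or settings of RMA. The number of arrays limits the precision. The values were used as deposited.

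The table has 12488 probe sets. After removal of 66 controls, 12422 were tested; 10833 have 1 gene symbol, 396 several and 1193 none. Each of 8251 genes stands for its brightest probe set, by the mean over the 27 arrays. Of the probe sets with 1 symbol, 10817 matched the GRCm38.p6 gene table.

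Groups were tested with limma 3.58.1, run in R 4.3.3 (lmFit and eBayes, two-sided), on all 27 arrays with 9 group means and 18 residual degrees of freedom. Adjusted p-values are Benjamini-Hochberg over all tested probe sets, and genes were called under 0.05 with no minimum fold. A permutation of 3 arrays against 3 cannot give p under 0.1, so none is given. Tested on simulated data for this comparison, the method recovered 35.8%, 86.6% and 97.3% of log2 changes of 0.5, 1 and 2, with 4.07% false calls. The simulated noise was normal, independent between probe sets and equal in spread in all groups. It held no array that stood apart, unlike the real arrays, so these shares do not measure recovery or false calls in the real data.

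Members and gene lists were chosen with earlier results of these data known, and lists have counts and medians only. Named are the 15 largest rises and 15 largest falls among called genes whose groups do not overlap. Others come from the 3 called genes of each list that differed most, not all of which are named, and from a panel of islet, Myc, cycle and cell type genes. Mx2, Vegfb, Prdx2, Prdx3, Txnrd2, Mt1, Mt2, Ddit3, Trib3, Ppp1r15a, Cdh5, Tek, Eng, Icam2, Nos3, Uqcr11, Sec61a1, Sec61b, Lars, Sars, Wars, Yars, Rars and genes named without a value were added after their values were seen. The other settings tried were scalings, filters, variance models, array weights, subsets of arrays, a replicate block, probe set rules, marker and RNA quality covariates, a 2-fold minimum, and omission of each array in turn. No file was left out.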

Additional observations from a re-analysis of the deposited data

How the results depend on the processing

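The split of calls, 459 higher and 656 lower, stayed within 1.5 times under median centring, quantile normalization, both filters on low values, a trend and robust variance, a fit of 5 groups, averaging probe sets by gene, any probe set, and the Gapdh covariate. With array weights 802 genes were called higher, with the 6 arrays alone 14 higher and 16 lower, and with a 2-fold minimum 117 higher and 86 lower. Acinar and leukocyte covariates left 394 lower, and leaving out the 4 most leukocyte-rich arrays of the series left 415 lower. Leaving out each of the 6 arrays gave 200 to 478 higher and 395 to 604 lower. The share of calls that were higher was 41.2%, against 51.0% without 6-days-off replicate 1, 51.5% without the 4 leukocyte-rich arrays and 57.6% with a 2-fold minimum, and, in the other direction, 33.6% without untreated replicate 1, 36.9% without 6-days-off replicate 3 and 37.3% with median centring. With the replicate block 478 genes were called higher and 661 lower. Deviations of same-numbered arrays from their group means correlated at 0.320, 0.0988 and 0.154. Arrays of different numbers were not compared in this way, so these values do not settle whether the numbers pair the arrays. Of the 96 named called genes, 8 kept their call under all settings and 8 with the 6 arrays alone; the cause was not tested, beyond the fewer arrays in that fit. Genes that were not called changed sign in some settings. The named gene Ins2 was at 0.015 with the Gapdh covariate. The named gene Iapp was at 0.043 without the 4 arrays and ranged from -0.18 to 0.043 with an array left out, highest without 6-days-off replicate 1. The named gene Mki67 was at -0.33 with array weights, -0.80 without the 4 arrays, and -0.80 (without 6-days-off replicate 1) to 1.18 with an array left out. The named gene Hspa5 ranged from -0.073 (without 6-days-off replicate 3) to 0.65 with an array left out, and was at -0.055 without untreated replicate 1. Levels near those of bacterial control probe sets limit the measured folds of Mx1, Mx2 and other dim genes.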

Other observations

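Families and complexes below were put together after the values were seen, so their counts are descriptions, to be read beside the 5.56% of all genes called higher and the 7.95% called lower. Of 7 measured cohesin genes, which encode the ring that holds sister chromatids and chromatin loops, Rad21, Smc3 and Stag2 were higher (42.9%) and none was lower. Smc3 read 7.50, 7.31 and 7.24 in 6-days-off islets against 5.65, 6.05 and 6.51 in untreated islets (adjusted p = 0.00166), and Stag2 read 8.53, 8.53 and 8.74 against 7.39, 7.82 and 7.90 (adjusted p = 0.000789). A second Stag2 probe set was at 0.60 and not called. Of 10 desmosome genes, Pkp2 and Dsp were lower (20%) and none was higher; Dsp, which ties desmosomes to keratin filaments, read 6.66, 6.95 and 6.63 against 7.26, 8.41 and 8.42 (adjusted p = 0.00230), and its other probe set was at 0.04.

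Of 24 genes of coated vesicles and transport between ER and Golgi, 7 were higher and 2 lower (29.2% and 8.33%). Kdelr3, a receptor that returns ER proteins from the Golgi, read 7.70, 8.68 and 8.59 in 6-days-off islets against 6.93, 7.24 and 6.98 in untreated islets (adjusted p = 0.00175). Arf1, the GTPase that recruits coats, read 11.30, 11.46 and 11.32 against 10.34, 10.47 and 10.57 (adjusted p = 0.00138). Of 41 spliceosome and SR protein genes 11 were higher and 5 lower (26.8% and 12.2%), and of 61 mitochondrial ribosome genes 8 were higher and 8 lower (13.1% each), so each family held calls in both directions. Snrpd3, a core protein of spliceosomal particles, rose by 1.23 ± 0.21, while Srsf6, an SR splicing factor, fell by 0.91 ± 0.19. Mrpl23 and Mrpl28, of the large mitochondrial ribosome subunit, fell by 1.40 ± 0.23 and 1.17 ± 0.18, and Mrps28, of the small subunit, rose by 0.93 ± 0.21.

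Of 11 FK506-binding protein genes, which encode proline isomerases, 5 were lower (45.5%) and none higher. Fkbp4, a partner of Hsp90 in steroid receptor complexes, read 10.14, 10.68 and 10.93 in 6-days-off islets against 11.38, 11.63 and 11.95 in untreated islets (adjusted p = 0.000789), and its second probe set fell by 0.93. Solute carrier genes had 1 of 151 higher (0.662%) and 11 lower (7.28%, near the share of all genes), with a family median of -0.02. Of 16 cathepsin and cystatin genes, Ctsc, Cstb and Ctsl were higher (18.8%); Cstb, an inhibitor of cathepsins, read 10.08, 10.05 and 10.69 against 8.68, 8.98 and 9.06 (adjusted p = 0.00103). Ctsc, a protease that activates granule enzymes of leukocytes, read 8.25, 7.31 and 7.44 against 6.07, 5.82 and 6.44 (adjusted p = 0.0188), highest in the array with the most leukocyte markers, and its other probe sets were at 0.14 and -0.15.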
